A study of Homo sapiens with 6 samples.

Results

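The C/EBP genes CEBPA, CEBPB, CEBPD and CEBPG, the related gene ATF5 and the stress co-regulator gene NUPR1 were followed in HDQ-P1 cells, an established human breast carcinoma line, after treatment with the small molecule Y-320. The 6 genes were chosen by name as bZIP partners of the stress factor ATF4 and a stress co-regulator. Each matched 1 of the 40295 Ensembl identifiers in the deposited table. RNA-seq libraries came from 3 samples exposed for 48 h to Y-320 at 1 μM and from 3 untreated samples, all grown in the same medium. No solvent is mentioned for the untreated cells, so the compound and its solvent cannot be told apart, and nothing states that the replicates were separate cultures, so all p-values measure the spread between these samples. The samples are bulk RNA, in which fewer cells with a transcript and less of it per cell cannot be told apart.

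C/EBP proteins bind DNA as dimers through a basic region and leucine zipper (bZIP). C/EBPα is known for differentiation and growth arrest, C/EBPβ and C/EBPδ for inflammatory and acute-phase gene control, and C/EBPγ, which lacks a transactivation domain of its own, for pairing with other bZIP proteins, ATF4 among them. In the integrated stress response, phosphorylation of eIF2α lowers general translation while the mRNAs of ATF4 and ATF5 are translated more, and ATF4 with a C/EBP partner binds composite sites in genes of amino acid supply. NUPR1 is a small nuclear protein first found as a stress-induced transcript, and it is described as a co-regulator of transcription.

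Transcripts of 4 of the 6 genes were higher in cells exposed to Y-320, and those of the other 2 did not pass the test. NUPR1 and CEBPG rose about equally, 2.50-fold and 2.47-fold, CEBPB rose 1.68-fold and CEBPD 1.30-fold. CEBPA and ATF5 were the 2 genes without a call, with log2 fold changes of 0.13 and -0.03. All 6 genes passed the filter on low counts, and the calls are those of edgeR's quasi-likelihood test at an adjusted p under 0.05 over 16580 genes. Calls were frequent in this experiment. Of all genes tested, 51.5% passed the threshold in either direction, 26.2% as higher and 25.4% as lower with Y-320. The 4 calls among 6 genes are set beside these shares. The genes were chosen with earlier results of these data known, so this is a description. For the same 4 genes, all Y-320 libraries lay above all untreated libraries, which was the case for 29.8% of the genes tested. A call with a log2 fold change of at least 1 was rarer, at 2.43% of the genes tested, and CEBPG and NUPR1 were among them.

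The libraries held 21045401 to 22740535 counts, and 1 count was worth 0.0438 to 0.0480 normalized CPM (counts scaled to a common total, here with TMM factors). The chi-square per degree of freedom, which is near 1 for sampling noise alone, was 2.00 to 2.87 between replicates and 37.1 to 39.0 between groups. All 10 epithelial markers examined had more than 3 counts in every library, with summed levels of 12580 to 13180 normalized CPM untreated and 7854 to 7919 with Y-320. Of the markers of other cells, the 6 fibroblast markers summed to 249.7 to 285.1 normalized CPM untreated and 126.9 to 147.2 with Y-320, the 4 endothelial markers to 17.8 to 19.3 and 14.3 to 18.3, and the 6 leukocyte markers to 37.3 to 38.9 and 68.1 to 74.4. Among the leukocyte markers CD68, a lysosomal protein gene, averaged 69.7 normalized CPM with Y-320. The sums join genes that went different ways. Of the epithelial markers 9 were lower and EPCAM was higher with Y-320 (log2 fold change 0.38, edgeR adjusted p = 1.04e-06). Of 3 endothelial markers tested, PECAM1 rose from 3.98 to 9.26 normalized CPM, CDH5 fell from 13.6 to 5.5, and 1 did not pass. The part of these shifts in the results was not tested.

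The start regions of CEBPA, CEBPB, CEBPG and ATF5 were searched for the sites that these proteins are known to bind. CEBPD and NUPR1, which both rose, were not searched. In the RefSeq promoter sequences (GRCh38.p14), the 250 bases before each listed start were searched on both strands for TGATGNAA, a composite of ATF4 and C/EBP half-sites, for TGACGTCA, the cyclic AMP response element, and for TTGCNNAA, a C/EBP site. CEBPG, on the plus strand of chromosome 19, had 1 composite match over its 2 starts, 42 bases before the start at position 33374113. The match is shown because CEBPG had the largest response among the C/EBP genes. In GENCODE 44 it falls inside the CEBPG gene but in no exon, within an intron of the transcript that begins further upstream. The 78 bases up to that start (chr19:33374035-33374112) are given 5′ to 3′ on the gene's strand, with the matching letters in capitals.
CEBPG: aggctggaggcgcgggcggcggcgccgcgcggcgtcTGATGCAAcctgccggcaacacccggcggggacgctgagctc
ATF5, the gene with the smallest difference, had no composite match before its 3 starts but had 1 C/EBP match on the opposite strand, 104 bases before the start at 49928906. It lies in exonic untranslated sequence of ATF5 and of NUP62, a nuclear pore gene on the opposite strand, and the 30 bases around it (chr19:49928791-49928820, plus strand) are given in the same way.
ATF5: ctggcaggaaaTTCTGCAAgcaaggaaagg
Neither the 1 start of CEBPA nor the 2 starts of CEBPB had a match to any of the 3 motifs, and the matches shown did not overlap another motif. Of all 35116 promoters of this length, 3.14% held the composite, 1.65% the cyclic AMP response element and 9.05% the C/EBP site. Of 37 stress response target genes with a promoter sequence, 8 held the composite, 1 the cyclic AMP response element and 4 the C/EBP site, counted over genes, which can have several starts, and so not comparable with the shares of single promoters. A match describes letters in the reference and is no evidence that a factor binds there.

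CEBPG encodes the short C/EBP protein that acts through its partners (ENSG00000153879, chromosome 19 from 33373685 to 33382686 on the plus strand of hg38, protein-coding). Replicates 1, 2 and 3 of untreated cells gave 553, 520 and 570 estimated counts, and those of treated cells gave 1372, 1378 and 1429. Every treated library held more than double the reads of every untreated library. Normalized CPM was 25.3 ± 0.484 untreated and 62.5 ± 2.27 with Y-320 (mean ± SD, n = 3 per group), which is 1.31 ± 0.042 on the log2 scale (fold change ± SE, edgeR adjusted p = 4.10e-09). Only 1.48% of the genes tested had a higher log2 fold change. None of its 31-base words occurs in a transcript of another gene in GENCODE 44 (0%), so its reads are the least ambiguous of the 6 genes.

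CEBPB, which encodes C/EBPβ, an inducible factor of inflammation and stress, was the most abundant of the 6 genes (ENSG00000172216, chromosome 20 from 50190830 to 50192668 on the plus strand). It has a single exon, and its long and short protein forms come from the same mRNA, so these counts do not separate them. Its untreated libraries held 1744, 1629 and 1585 estimated counts, and its treated libraries 2934, 2822 and 2833. The treated libraries lay close together and all above the untreated ones. Normalized CPM was 76.3 ± 3.92 and 128.5 ± 0.659 (mean ± SD, n = 3 per group), which is 0.75 ± 0.037 on the log2 scale (fold change ± SE, edgeR adjusted p = 7.14e-08). In the annotation 12.4% of its 31-base words also lie in other genes, mostly the antisense transcript CEBPB-AS1, which was not analysed here.

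CEBPD, which encodes C/EBPδ, a factor of the acute-phase response, rose the least of the 4 called genes (ENSG00000221869, chromosome 8 from 47736913 to 47738164 on the minus strand, a single exon). Estimated counts of 559, 544 and 588.2 without the compound stood against 777.2, 739 and 737.6 after exposure. The gap between the groups was wider than the range within either. Normalized CPM was 26.02 ± 0.662 and 33.7 ± 0.365 (mean ± SD, n = 3 per group), which is 0.37 ± 0.041 on the log2 scale (fold change ± SE, edgeR adjusted p = 2.61e-05), with 1.72% of its words shared, with CEBPB and CEBPE.

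CEBPA, which encodes C/EBPα, was scarce and did not pass the test (ENSG00000245848, chromosome 19 from 33299934 to 33302534 on the minus strand, a single exon). Its counts were 79, 67 and 78 without the compound, against 93, 67 and 93 after exposure. Y-320 replicate 2 lay below all 3 untreated libraries in normalized CPM, and the other treated libraries lay above them, so the groups overlapped. Normalized CPM was 3.44 ± 0.200 untreated and 3.78 ± 0.619 with Y-320 (mean ± SD, n = 3 per group), which is 0.13 ± 0.15 on the log2 scale (fold change ± SE, edgeR adjusted p = 0.494). The 95% interval of the log2 fold change reached from -0.20 to 0.47, so at this depth a change as large as that of CEBPD was within it. CEBPA and CEBPG are neighbours on chromosome 19, 71.2 kb apart. Without Y-320 replicate 2 the log2 fold change of CEBPA was 0.26 and still short of the threshold (edgeR adjusted p = 0.148, against 0.148 to 0.820 over all alternatives). Of its 31-base words, 40.3% occur in antisense transcripts, ENSG00000267580 and ENSG00000267727, which were not analysed here, and as strand was not stated for the counting, reads of both strands cannot be told apart.

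ATF5, a close relative of ATF4 linked to amino acid limitation and to mitochondrial stress, had nearly equal levels in the groups (ENSG00000169136, chromosome 19 from 49928702 to 49933935 on the plus strand). Untreated libraries held 481.5, 482.2 and 483.1 estimated counts of it, and treated libraries 509.0, 462.5 and 488.6. Normalized CPM was 22.3 ± 0.739 and 21.8 ± 0.602 (mean ± SD, n = 3 per group), which is -0.03 ± 0.049 on the log2 scale (fold change ± SE, edgeR adjusted p = 0.701). The groups overlapped, and the 95% interval of the log2 fold change ran from -0.14 to 0.08, which leaves outside it changes of the size seen for CEBPD, CEBPB, CEBPG and NUPR1. These are RNA counts, which leave the protein of ATF5 and of the other members unmeasured. ATF5 shares 17.4% of its words with other genes of the table. The microRNA gene MIR4751, inside ATF5 on the same strand, was not analysed here. On the opposite strand it overlaps NUP62, with 86.7 normalized CPM untreated and 81.4 with Y-320 (log2 fold change -0.09, edgeR adjusted p = 0.0553), and IL4I1, a secreted amino acid oxidase gene, with 0.596 and 0.642 (log2 fold change 0.10, edgeR adjusted p = 0.821). A readthrough gene across the same stretch, ENSG00000269179, had 0 counts in every library.

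NUPR1 had the largest log2 fold change of the 6 genes (ENSG00000176046, chromosome 16 from 28532708 to 28539008 on the minus strand). Estimated counts were 85.1, 100.9 and 96.9 without the compound, against 254.6, 257.0 and 216.7 after exposure. The lowest treated library held more than double the highest untreated library. Normalized CPM was 4.36 ± 0.497 and 10.9 ± 1.01 (mean ± SD, n = 3 per group), which is 1.32 ± 0.11 on the log2 scale (fold change ± SE, edgeR adjusted p = 4.25e-06). Of its words, 31.3% occur in other genes, 14.9% in genes of the table. A long non-coding RNA gene on the same strand, ENSG00000289754, overlaps it by 1969 bases and was not analysed here. Its paralog NUPR2 went the other way at a very low level, with 14, 13 and 14 counts without the compound against 8, 4 and 7 after exposure (log2 fold change -1.14, standard error 0.35, edgeR adjusted p = 0.0199).

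**Figure D1:**
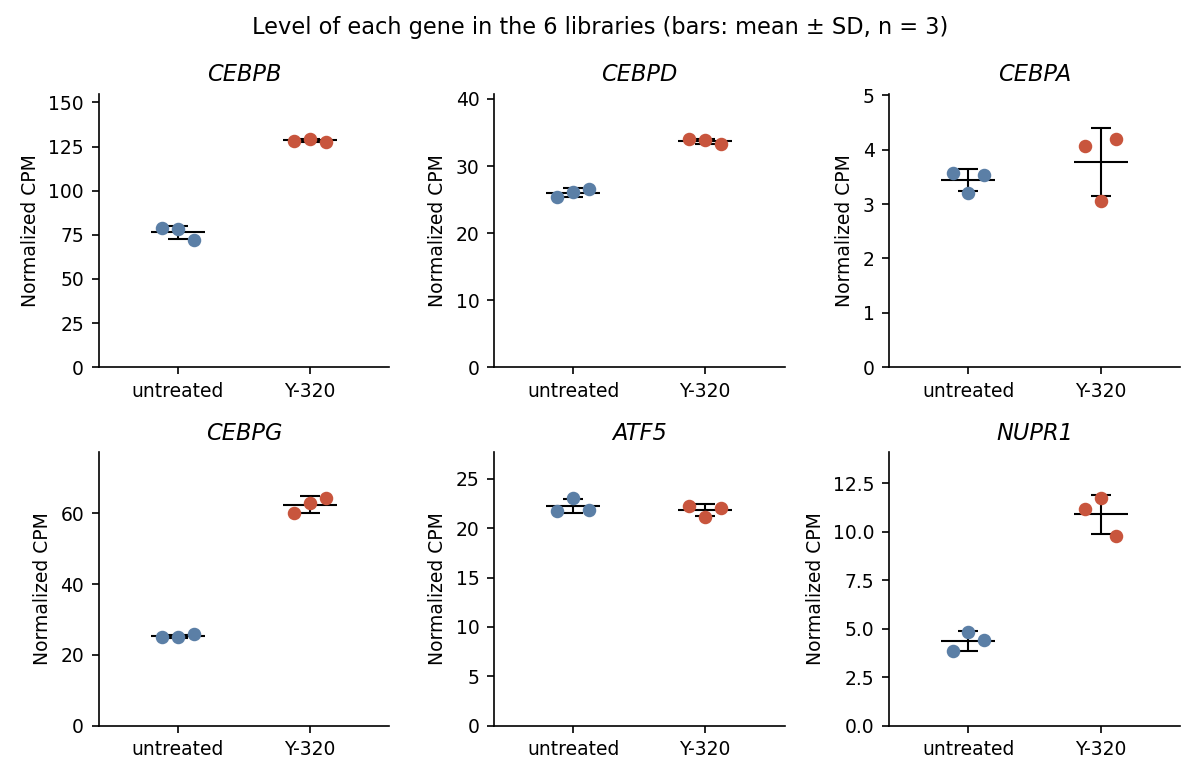
Normalized CPM (y axis, linear from 0) of each gene in the 3 untreated (blue) and 3 Y-320 (red) libraries, with the mean ± SD as black bars. The groups are apart for CEBPB, CEBPD, CEBPG and NUPR1 and overlap for CEBPA and ATF5.

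With 3 libraries against 3, an exact permutation test of a single gene cannot go below p = 0.1, which CEBPB, CEBPD, CEBPG and NUPR1 reached, while CEBPA gave 0.5 and ATF5 gave 0.6 (two-sided). Whether the members responded unequally was compared for all 15 pairs through the log2 ratio of their CPM in each library. In 12 pairs the ratios of the treated and untreated libraries were fully apart. Each of these had a p of 0.1, the smallest this design allows, in a two-sided exact permutation test (Benjamini-Hochberg adjusted over the 15 pairs, p = 0.125). The pairs reuse the same genes and are not independent. No share over pairs of other genes was computed, so the count of 12 is a description. The ratio of CEBPG to CEBPB rose by 0.55 on the log2 scale (standard error 0.067), that of CEBPG to CEBPD by 0.93 (standard error 0.041) and that of CEBPB to CEBPD by 0.38 (standard error 0.063). NUPR1 and CEBPG kept a ratio that shifted by 0.01 (standard error 0.14), a difference smaller than its standard error. CEBPA overlapped with CEBPD and with ATF5 in the same comparison, with shifts of 0.25 (standard error 0.16, CEBPD over CEBPA) and 0.15 (standard error 0.14, CEBPA over ATF5).

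**Figure D2:**
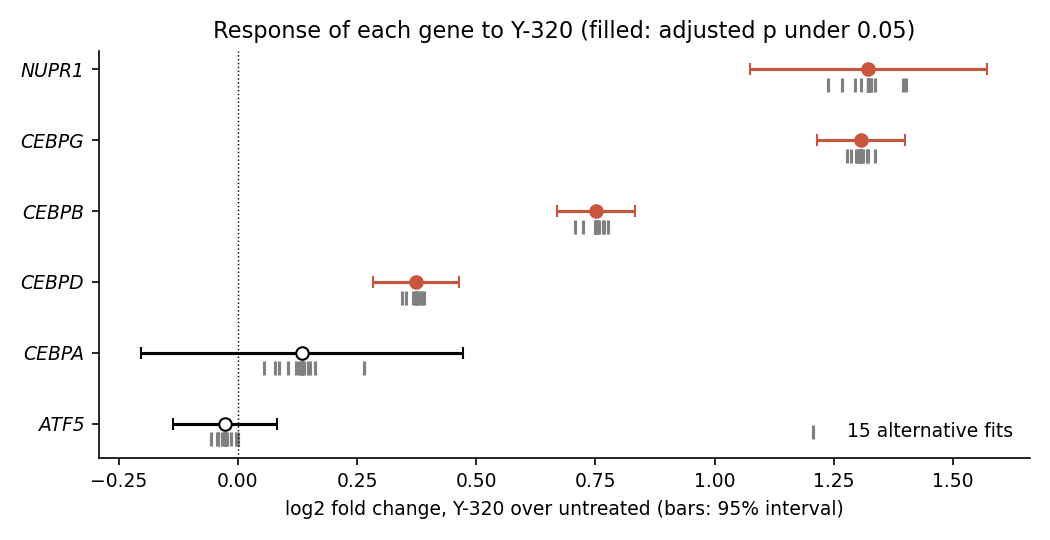
Log2 fold change of each gene (x axis, Y-320 over untreated) with its 95% interval from edgeR, filled and red where the adjusted p was under 0.05. The grey ticks under each gene are 15 alternative fits, all of which stay on the same side of 0 as the value above them.

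Levels of different genes were compared per kilobase of the canonical transcript in GENCODE 44. Untreated cells held 41.5 ± 2.13 CPM per kb of CEBPB, 20.8 ± 0.528 of CEBPD, 11.1 ± 0.368 of ATF5, 6.78 ± 0.130 of CEBPG, 1.32 ± 0.0767 of CEBPA and 0.825 ± 0.0940 of NUPR1 (mean ± SD, n = 3 per group). With Y-320 the order was CEBPB at 69.9 ± 0.358, CEBPD at 26.9 ± 0.291, CEBPG at 16.8 ± 0.608, ATF5 at 10.9 ± 0.300, NUPR1 at 2.06 ± 0.191 and CEBPA at 1.45 ± 0.238 CPM per kb. No neighbours in either order overlapped. On this scale CEBPG was below ATF5 untreated and above it with Y-320, and NUPR1 was likewise below and then above CEBPA. Both crossings depend on the lengths used, since in plain normalized CPM CEBPG was above ATF5 and NUPR1 above CEBPA in both groups. The annotated transcripts range from 682 to 2007 bases for ATF5 and from 550 to 5291 for NUPR1, the longest was used for each, and a shorter transcript would raise its level per kb.

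Summed over the 4 C/EBP genes, the untreated libraries held 71.3, 71.2 and 68.6 CPM per kb and the treated libraries 114.7, 115.3 and 115.0. The pool was thus 1.63-fold larger, with the groups fully apart (p = 0.1 in a two-sided exact permutation test, the smallest possible). Within the pool CEBPG gained the most. Its share of the CPM per kb was 9.42%, 9.39% and 10.1% without the compound and 14.0%, 14.7% and 15.03% after exposure, a gain of 4.95 percentage points. The share of CEBPD fell from 29.6% ± 1.34 to 23.4% ± 0.282 and that of CEBPA from 1.88% ± 0.130 to 1.26% ± 0.210 (mean ± SD, n = 3 per group), although the CEBPD transcript itself rose. CEBPB held the largest share in both groups, 58.9% ± 1.78 untreated and 60.8% ± 0.265 with Y-320. Its small gain of 1.81 percentage points depends on the length scaling, since with plain CPM its share was lower with Y-320 by 1.98 points (a difference of -1.98). For each of the 4 genes the shares of the groups were apart (p = 0.1 in a two-sided exact permutation test, and 0.1 when adjusted over the 4 shares). The 4 shares are parts of the same sum, so they are not independent results. CEBPE, the granulocyte member of the family, had 0 counts in all 6 libraries, which allows up to 0.131 to 0.144 normalized CPM (3 counts, counting error only).

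**Figure D3:**
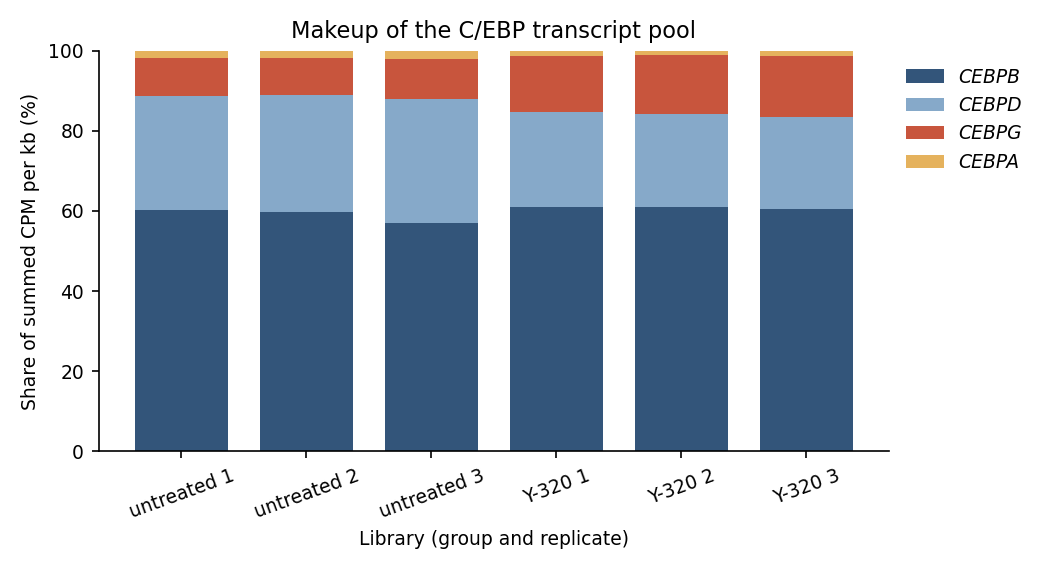
Share of each C/EBP gene (stacked bars, % of the summed CPM per kb) in each of the 6 libraries. The CEBPG band widens from 9.39% to 10.1% without the compound to 14.0% to 15.03% after exposure, and the CEBPD band narrows.

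CEBPZ and its neighbour CEBPZOS carry the family's name without being bZIP genes, the first encoding a CCAAT-binding protein. They fell slightly with Y-320. CEBPZ went from 75.7 ± 2.20 to 70.4 ± 2.56 normalized CPM (mean ± SD, n = 3 per group), which is -0.105 ± 0.037 on the log2 scale (fold change ± SE, edgeR adjusted p = 0.0360). CEBPZOS went from 52.6 ± 0.467 to 48.0 ± 1.79 (mean ± SD, n = 3 per group), which is -0.13 on the log2 scale (edgeR adjusted p = 0.0127). CEBPA-DT, a divergent transcript beside CEBPA, was not analysed here.

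Across the bZIP family, which supplies the dimer partners, 47 of 53 genes were tested, 29 were higher, 7 lower and 11 did not pass. Without the members this was 26 higher and 7 lower of 42 tested, with a median log2 fold change of 0.41 beside 0.00 for all genes tested. The 61.9% higher among them stood beside 26.2% of all genes tested, of which 25.4% were lower. In the order of log2 fold changes CEBPG stood at place 8, CEBPB at 16, CEBPD at 25, CEBPA at 34 and ATF5 at 39 of 47. DDIT3 and ATF4, whose proteins are known to pair with C/EBP factors, stood at places 4 and 11. DDIT3, which encodes the C/EBP-like stress factor CHOP, rose from 11.0 ± 0.416 to 37.7 ± 2.62 normalized CPM (mean ± SD, n = 3 per group), which is 1.78 ± 0.065 on the log2 scale (fold change ± SE, edgeR adjusted p = 1.01e-08). ATF4, the main effector of the integrated stress response, rose from 210.6 ± 2.84 to 448.7 ± 8.65 (mean ± SD, n = 3 per group), which is 1.09 on the log2 scale (edgeR adjusted p = 7.52e-10). The largest increases among bZIP genes of at least 1 CPM were those of ATF3, a stress-induced repressor (log2 fold change 2.36, edgeR adjusted p = 5.13e-09), and FOSL1, an AP-1 subunit (2.09, edgeR adjusted p = 7.66e-10). CREB3L1, a membrane-bound factor cleaved in secretory stress, fell (log2 fold change -1.18, edgeR adjusted p = 1.69e-05).

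**Figure D4:**
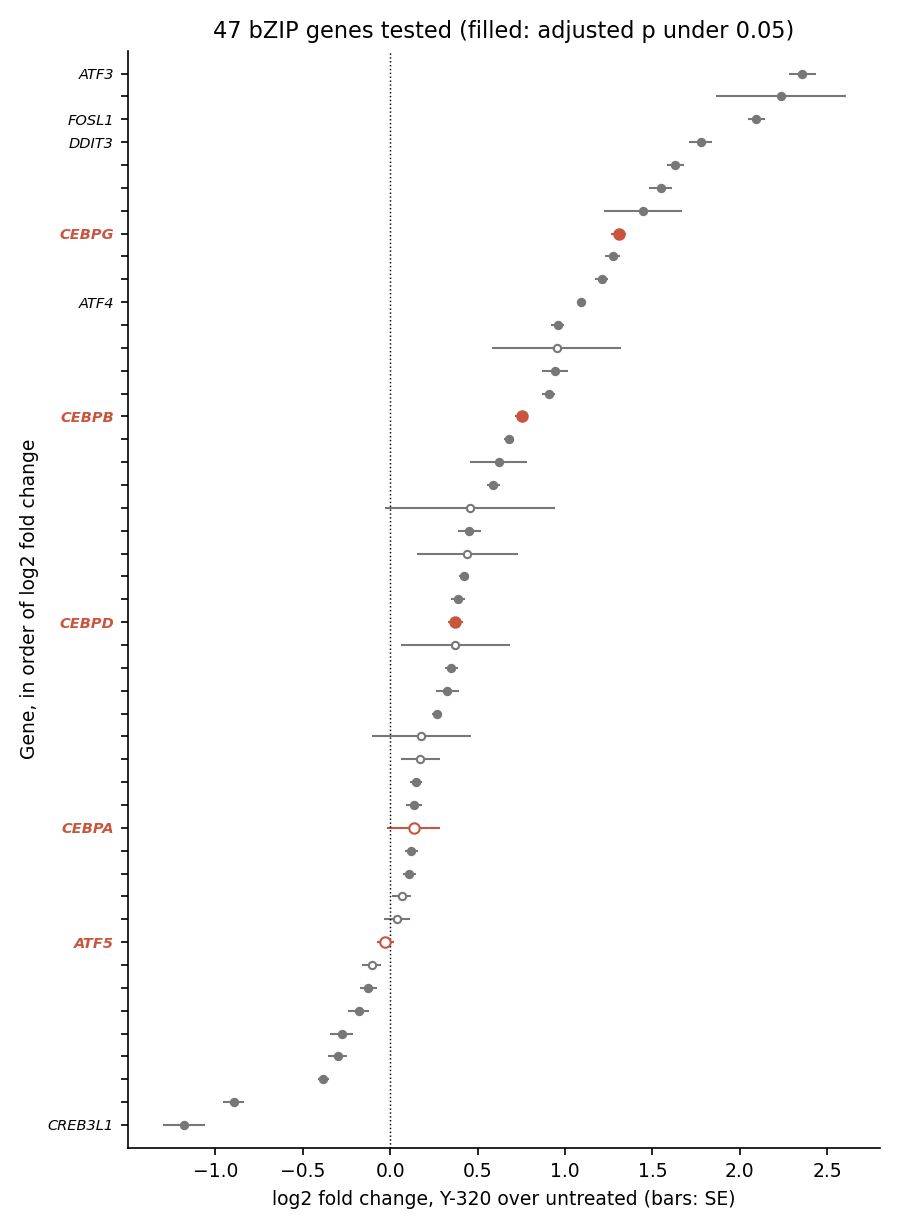
Log2 fold change with standard error (x axis) of the 47 bZIP genes tested, ordered by value, with names for the genes described in the text, the members in red and filled symbols for an adjusted p under 0.05. CEBPG stands at place 8 and ATF5 at place 39.

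Lists of genes linked with these proteins were set beside all genes tested. The lists were written with earlier results of these data known, so their counts are a description and no independent evidence of direction. Some genes are counted in several lists. DDIT3 and ATF3 are both bZIP genes and stress response targets. DDIT3 and TRIB3 are both stress response targets and genes known to act on C/EBP proteins or their induction. Of 47 known targets of the integrated stress response, 46 were tested and all 46 were higher with Y-320, with a median log2 fold change of 1.03. Over all genes tested 26.2% were higher and 25.4% lower, with a median of 0.00. Within the target list the order was as follows. VLDLR, a lipoprotein receptor (log2 fold change 2.48, edgeR adjusted p = 5.64e-08), and INHBE, an inhibin subunit (2.46, edgeR adjusted p = 6.21e-07), had the largest values. FGF21, a secreted stress hormone, had too few counts to be tested.

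Among 24 acute-phase and inflammatory genes linked with C/EBPβ and C/EBPδ, 10 were tested and the other 14 had too few counts. All 10 passed as higher (median log2 fold change 0.84), but genes seen mainly in treated cells enter the test through that group. The increases were unequal. C3 rose by only 0.155 on the log2 scale (edgeR adjusted p = 0.00122), and SERPINA1 was close to the threshold (0.58, edgeR adjusted p = 0.0491). The share over all genes tested was 26.2% higher and 25.4% lower. CXCL8, a neutrophil chemokine, had which is 3.58 on the log2 scale (edgeR adjusted p = 8.15e-07) from 0.490 to 5.93 normalized CPM. IL6, the cytokine for which C/EBPβ was first described, rose from 8.60 ± 0.822 to 24.4 ± 1.55 normalized CPM (mean ± SD, n = 3 per group), which is 1.502 on the log2 scale (edgeR adjusted p = 1.28e-07). CRP, ORM1, FGA, FGB and FGG, which the liver secretes, had 0 counts in every library.

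ATF5 is linked with the mitochondrial unfolded protein response, and the 15 chaperone and protease genes of that list were mixed. Of these, 5 rose, 5 fell and 5 did not pass, with a median log2 fold change of 0.01. This is near the shares of all genes tested, 26.2% higher and 25.4% lower with a median of 0.00. LONP1, a matrix protease, rose from 61.2 ± 1.19 to 123.6 ± 4.31 normalized CPM (mean ± SD, n = 3 per group), which is 1.02 ± 0.035 on the log2 scale (fold change ± SE, edgeR adjusted p = 6.59e-09), and HSPA9, the matrix HSP70, rose by 0.475 on the same scale (edgeR adjusted p = 3.52e-07). The chaperonin pair fell, HSPE1 with which is -0.42 on the log2 scale (edgeR adjusted p = 1.81e-06) and HSPD1 with -0.17 (edgeR adjusted p = 4.04e-04).

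Genes known to act on C/EBP proteins or on their induction numbered 16, of which 7 were higher, 1 was lower and 8 did not pass (median log2 fold change 0.09). The 43.8% higher among them stood beside 26.2% of all genes tested, of which 25.4% were lower. The pseudokinases TRIB1 and TRIB2 recruit the ligase COP1 to C/EBPα. TRIB1 rose from 35.2 ± 1.09 to 55.6 ± 0.442 normalized CPM (mean ± SD, n = 3 per group), which is 0.66 on the log2 scale (edgeR adjusted p = 1.73e-07), while TRIB2 had 0.11 (edgeR adjusted p = 0.334). TRIB3, their stress-induced relative and itself a target of ATF4 and CHOP, rose from 13.7 ± 0.612 to 56.4 ± 7.73 (mean ± SD, n = 3 per group), which is 2.04 on the log2 scale (edgeR adjusted p = 8.39e-08). ID2, a repressor of helix-loop-helix factors, was the gene that fell, from 22.2 ± 0.861 to 10.6 ± 0.393 (mean ± SD, n = 3 per group), which is -1.06 on the log2 scale (edgeR adjusted p = 2.06e-07). Among 7 genes for NUPR1's paralog and known protein partners, 1 was higher, 2 were lower and 4 did not pass, beside the same shares of all genes. RING1, a Polycomb protein gene, was scarce, with 1.30 normalized CPM untreated and 3.04 with Y-320 (means, n = 3 per group). It was higher by 1.23 ± 0.25 on the log2 scale (fold change ± SE, edgeR adjusted p = 0.00184). Its treated libraries were uneven, with 77.4, 44.5 and 82.3 estimated counts. COPS5, a signalosome subunit gene, was lower by little, at -0.10 (standard error 0.033, edgeR adjusted p = 0.0318), the other lower gene being NUPR2.

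**Figure D5:**
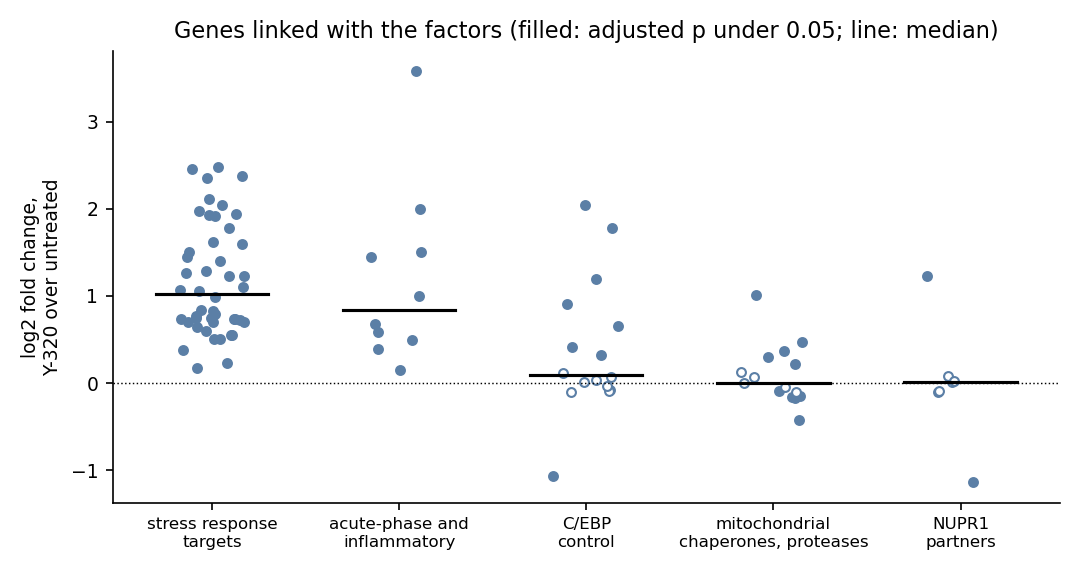
Log2 fold changes (y axis) of the tested genes in 5 lists linked with the factors, with filled symbols for an adjusted p under 0.05 and a line at the median. The medians are 1.03 for stress response targets, 0.84 for acute-phase and inflammatory genes, 0.09 for C/EBP control genes, and 0.01 and 0.02 for the mitochondrial and NUPR1 lists.

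The genes whose pattern over the 6 libraries lay nearest to each member were found by the Euclidean distance of log2 CPM, set relative to the untreated mean, among 15077 genes of at least 1 CPM. They were GOLGA3 and B3GNT5 for CEBPG (distances 0.068 and 0.082), MOGS and TSPAN13 for CEBPB (0.049 and 0.057) and CLCN6 and COL6A2 for CEBPD (0.033 and 0.038). For NUPR1, FA2H and KCNK6 lay at 0.18 and 0.25, for CEBPA ANO7 and NUP62CL at 0.086 and 0.13, and for ATF5 RPL41 and SUGP1 both at 0.020. The distances describe these 6 libraries and say nothing of shared function.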

How the data were processed

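RNA of HDQ-P1 cells was sequenced. The authors deposited estimated counts per Ensembl gene, without normalization, from kallisto 0.46.1 according to the submitters' processing notes, on hg38. The Ensembl release, filters and strand setting are not given in the sources used here. Of the values, 48.5% were not whole, as happens when reads that fit transcripts of several genes are divided among those genes. They were rounded and matched by identifier to names (35390 of 40295). No deposited column was left unmapped.

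Genes were filtered with filterByExpr (minimum 10 counts, 15 in total), scaled by TMM and compared by the quasi-likelihood test of edgeR 4.0.16 in R 4.3.3, adjusted by Benjamini-Hochberg at a 0.05 threshold. This stands in for the pipelines combined in the paper, which it does not name. Standard errors were derived from the F statistic, and intervals are 95%. DESeq2 1.42.0 and limma 3.58.1 served as alternatives. The edgeR step was tested on simulated data. Python 3.11.15 with scipy 1.17.1 gave the exact permutation tests, and matplotlib 3.10.9 the plots. Positions are from GENCODE 44, and shared sequence was counted as words of 31 bases in transcripts of other genes, on both strands.

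Named genes were all members, listed relatives, TRIB genes, genes overlapping a member, the 2 nearest patterns per member, and in each list at most 2 called genes from each end of the log2 fold changes, if their mean was at least 1 CPM. A result that this rule also names is not reported here. CD68, EPCAM, PECAM1, CDH5, COL3A1, DCN, C3, SERPINA1, FGF21 and the silent liver genes were named after their values were seen. The pairwise ratios were added then too. The members and lists were chosen with earlier results of these data known. Alternatives were other filters, scalings and tests, a replicate block, unrounded counts, a stricter threshold of 0.01, leaving out each library, and other lengths for the shares.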

Additional observations from a re-analysis of the deposited data

How the results depend on the processing

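The log2 fold changes of the 6 genes kept their direction and their side of the threshold in all 90 alternative values (15 fits each). They ranged from 1.24 to 1.40 for NUPR1, 1.28 to 1.34 for CEBPG, 0.71 to 0.78 for CEBPB, 0.35 to 0.39 for CEBPD, 0.055 to 0.26 for CEBPA and -0.056 to -0.00062 for ATF5. The count of members higher was 4 and of members lower 0 in each of 16 alternatives, with 0 members lower at an unadjusted p under 0.05 in edgeR and 0 lower by DESeq2 and limma-voom. The genes past the threshold of 0.05 numbered 7548 to 8663 in the alternative fits, against 8546. At the stricter threshold of 0.01 they numbered 6540.

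Whether the same replicate number in both groups marks shared samples is not stated, and the 6 libraries cannot settle it. Deviations of same-numbered libraries correlated at 0.0054 to 0.020, and 0 of the 6 libraries correlated best with its own number. With the replicate block the log2 fold changes were 1.32 for NUPR1, 1.31 for CEBPG, 0.75 for CEBPB, 0.37 for CEBPD, 0.13 for CEBPA and -0.03 for ATF5.

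Without length scaling the share of CEBPB differed by -1.98 percentage points, that of CEBPA by -0.974 and that of CEBPG by 8.07, because plain CPM gives longer transcripts more weight. Leaving out each library gave differences of 0.795 to 2.47 for CEBPB, 4.72 to 5.21 for CEBPG, -6.72 to -5.40 for CEBPD and -0.692 to -0.498 for CEBPA. The low counts of CEBPA limit what can be seen of it.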
